A study of Mus musculus with 8 samples.

Results

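Uncoupling protein 3 (Ucp3), the acyl-CoA thioesterase Acot1 and the cytochrome P450 Cyp4b1 were lower in fasted hearts with extra perilipin 5. The classic fasting genes Pdk4 and Angptl4 and the thioesterase Acot2 were not called in either direction. The genes described here are listed targets of the fatty acid receptor PPAR-alpha that rise in fasting: Ucp2, Ucp3, Pdk4, Angptl4, Acot1, Acot2 and Cyp4b1. Members were the rows of the value table annotated with exactly 1 of these symbols, which gave 6 of the 7 listed genes out of 19938 genes in all. Each of the 6 had 1 row, and Ucp2 was not analysed here.

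The study measured gene expression on Affymetrix whole-transcript arrays in 4 MHC-Plin5 and 4 control hearts of mice. All 8 mice were labelled male, of a c57/bl background and fasted, and the series text gives an age of 12 weeks. In MHC-Plin5 mice the lipid droplet protein perilipin 5 is overexpressed in cardiomyocytes, per the series title, and the name points to a myosin heavy chain promoter. The length of the fast, the number of transgenic lines and the genotype of the controls beyond that word are not stated in the sources used here. No fed hearts were analysed here, so the response to fasting itself was not measured. Each heart was taken as 1 animal, from the number of mice in the series text. Precision is limited by 4 arrays per group.

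PPAR-alpha is a nuclear receptor that binds fatty acids and, paired with a retinoid X receptor, switches on genes for burning fat. In fasting, adipose tissue releases fatty acids, the heart takes them up, and these targets rise in heart, liver and muscle. Perilipin 5 coats lipid droplets in oxidative tissues and restrains the release of fatty acids from them by the lipase ATGL. The listed genes act at different points: Pdk4 shuts pyruvate out of oxidation, Angptl4 inhibits lipoprotein lipase, Acot1 and Acot2 split acyl-CoA into free fatty acid and coenzyme A, and Ucp3 is a carrier of the inner mitochondrial membrane. Cyp4b1 oxidises fatty acids and foreign compounds in the endoplasmic reticulum. Pdk4 and Angptl4 are also induced by glucocorticoids and by other routes than PPAR-alpha.

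Plin5 checked the labels. Its log2 level was 8.92, 8.87, 9.04 and 8.58 in controls 1 to 4 and 12.17, 12.69, 12.63 and 12.08 in MHC-Plin5 hearts 1 to 4. The transgenic hearts were all far above the controls, and MHC-Plin5 2 and 3 stood above MHC-Plin5 1 and 4. The 10 cardiomyocyte markers (Myh6, Tnnt2 and others) had a summed level, the log2 of the sum of their unlogged values, of 16.67 to 16.72 in control and 16.44 to 16.70 in MHC-Plin5 hearts, so the labelled tissue carried its markers. Array medians were 5.99 to 6.24, with the 2 highest in control 2 and MHC-Plin5 4. In limma over all genes, 0 of 57 markers in 9 lists of other cell types were called, with 4 lower and 4 higher at an unadjusted p under 0.05. The atrial list nonetheless varied widely between hearts, with a summed level of 11.77 to 15.07 in control and 13.94 to 15.18 in MHC-Plin5 hearts. A difference under 0 was found in 9 of 10 cardiomyocyte, 5 of 8 endothelial, 4 of 5 white adipocyte and 5 of 6 brown adipocyte markers. It was found in 0 of 8 fibroblast, 2 of 10 macrophage and leukocyte, and 0 of 6 atrial markers (median difference 0.33, 0.27 and 0.88). Smooth muscle and pericyte had 2 of 6, skeletal muscle 3 of 6 and erythroid cells 1 of 2, against 57.5% of all genes. In a whole heart, fewer cells of a type and less RNA per cell cannot be told apart.

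Of the 6 members, 3 were called lower and 0 higher in MHC-Plin5 hearts, with 0 higher also at an unadjusted p under 0.05. A gene was called at a limma adjusted p under 0.05 over all 19938 genes, where 3.25% were called in all, 1.17% lower and 2.08% higher. The share of all genes at an unadjusted p under 0.05 was not computed. Counts at that cutoff, here and for the lists, therefore have no background beside them. All 6 members had a log2 difference under 0, as did 57.5% of all genes. The groups did not overlap in 3 members, with each MHC-Plin5 heart below each control heart, a pattern seen in 5% of all genes (the opposite pattern in 6.24%). The median difference of the 6 was -0.52, against -0.03 over all genes. The genes were listed with earlier results of these arrays known, so these counts are a description.

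**Figure D1:**
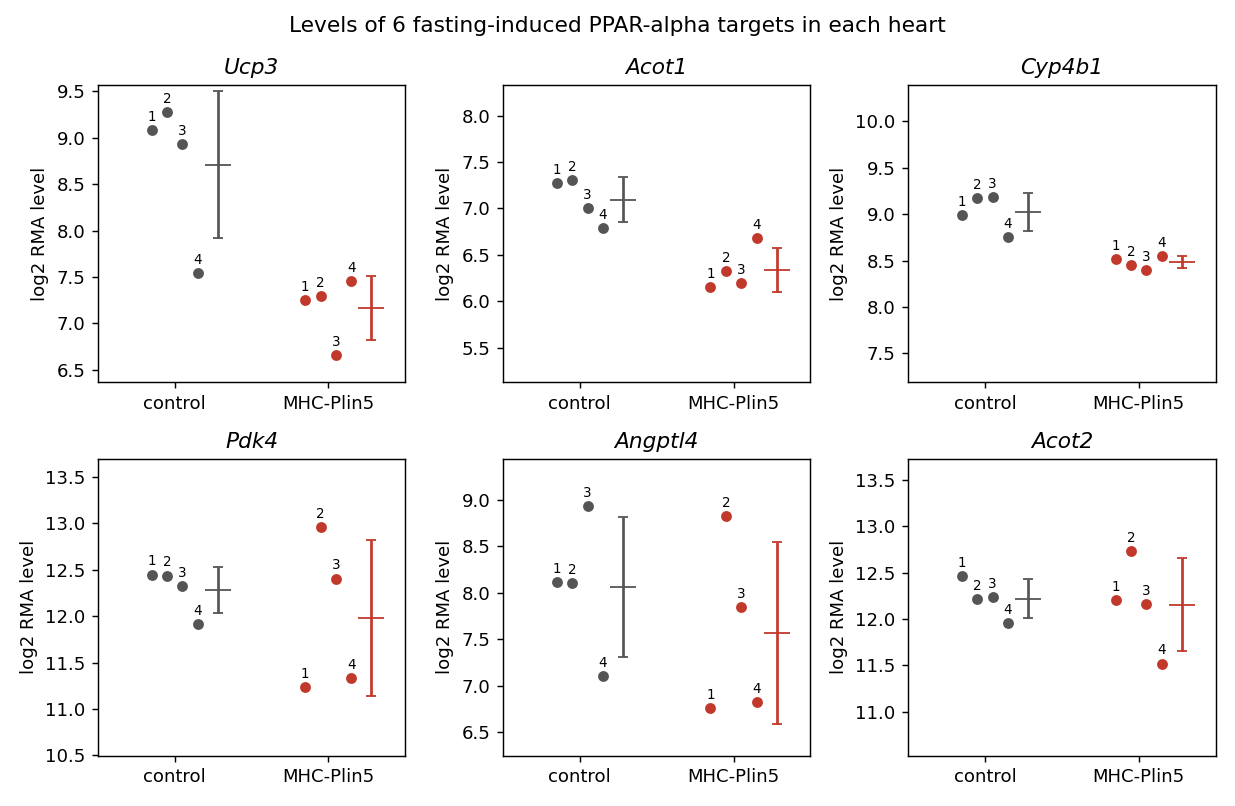
Log2 RMA level (y axis, each panel spanning the same range) of 6 genes in 4 control (grey) and 4 MHC-Plin5 (red) hearts; points are single hearts numbered as in the labels, and the bars at the side are mean ± SD. In the upper panels every MHC-Plin5 heart lies below every control heart, and in the lower panels the groups overlap.

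Ucp3 showed the largest fall of the members. Its product belongs to the uncoupling protein family and is found in skeletal muscle, heart and brown fat, where it follows fatty acid supply. Its log2 levels were 9.09, 9.28, 8.93 and 7.54 in controls 1 to 4 and 7.25, 7.29, 6.66 and 7.46 in MHC-Plin5 hearts 1 to 4. Controls 1 to 3 were close together, and control 4 lay 0.085 above the highest MHC-Plin5 heart, so that the separation of the groups rests on a narrow gap. The mean was 8.71 ± 0.79 (SD, n = 4) in control and 7.17 ± 0.35 (SD, n = 4) in MHC-Plin5 hearts. The log2 difference was -1.55 (SE 0.33, limma adjusted p = 0.0306), 2.92-fold lower with a 95% interval of 1.77-fold to 4.81-fold. Of all genes, 0.11% had a difference below that of Ucp3.

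Acot1 encodes the cytosolic thioesterase whose reaction frees fatty acids from coenzyme A. Its log2 level was 7.28, 7.30, 7.003 and 6.79 in controls 1 to 4 and 6.16, 6.32, 6.19 and 6.68 in MHC-Plin5 hearts 1 to 4. MHC-Plin5 4 was the highest of its group and lay 0.11 below control 4. The difference was -0.75 (SE 0.15, limma adjusted p = 0.0225), 1.69-fold lower with a 95% interval of 1.34-fold to 2.12-fold. The means were 7.09 ± 0.24 and 6.34 ± 0.24 (SD, n = 4 each).

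Cyp4b1 was the steadiest member. Its log2 levels were 8.99, 9.17, 9.18 and 8.75 in controls 1 to 4 and 8.51, 8.46, 8.40 and 8.55 in MHC-Plin5 hearts 1 to 4. The 4 MHC-Plin5 hearts spanned only 0.15 log2 units, and the gap to the lowest control was 0.20. The difference was -0.54 (SE 0.11, limma adjusted p = 0.0279), 1.46-fold lower with a 95% interval of 1.23-fold to 1.73-fold.

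For Ucp3, Acot1 and Cyp4b1 the exact two-sided permutation p over the 8 hearts was 0.0286, the smallest that 4 against 4 can give. Every gene whose groups do not overlap has this p (5% of all genes lower and 6.24% higher). It was not adjusted and restates the separation given above. The 3 calls held without control 4, MHC-Plin5 1 or MHC-Plin5 4. All 3 ended on leaving out any one of controls 1 to 3 or either of MHC-Plin5 2 and 3, where the limma adjusted p reached at most 0.102 for Ucp3, 0.0834 for Acot1 and 0.0965 for Cyp4b1. Fitting the variances robustly along an intensity trend removed the call of Ucp3 (limma adjusted p = 0.0716) and left those of Acot1 and Cyp4b1. All 3 calls ended when every row of the table was tested (limma adjusted p = 0.0928 for Ucp3, 0.0710 for Acot1 and 0.0745 for Cyp4b1), and with an unequal-variance test of each gene (Benjamini-Hochberg adjusted p = 0.308, 0.208 and 0.247). Without the 2 arrays with the highest medians, Ucp3 (limma adjusted p = 0.0821) and Cyp4b1 (0.0587) were not called and Acot1 was (0.0201).

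**Figure D2:**
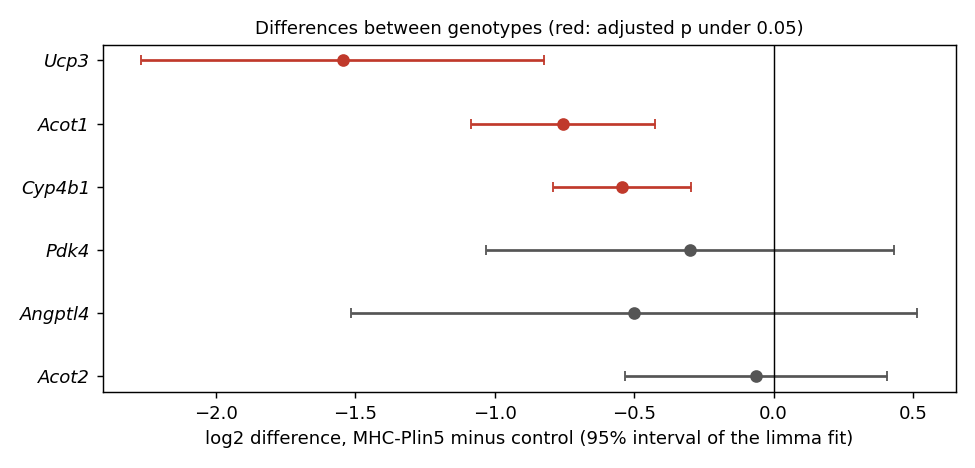
Log2 difference between MHC-Plin5 and control hearts (x axis) for each gene, with the 95% interval of the limma fit over 4 hearts a group; red marks an adjusted p under 0.05. The intervals of Ucp3, Acot1 and Cyp4b1 lie below 0, and those of Pdk4, Angptl4 and Acot2 span it.

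Pdk4, the pyruvate dehydrogenase kinase that keeps glucose carbon out of the mitochondrial fuel supply, was not called. Its log2 level was 12.45, 12.44, 12.32 and 11.92 in controls 1 to 4 and 11.23, 12.96, 12.41 and 11.34 in MHC-Plin5 hearts 1 to 4. The transgenic hearts split: MHC-Plin5 2 was above all controls, MHC-Plin5 3 was within their range, and MHC-Plin5 1 and 4 were below all of them. The SD was 0.84 in MHC-Plin5 and 0.25 in control hearts (n = 4 each). The difference of -0.30 (SE 0.33, limma adjusted p = 0.724) had a 95% interval from -1.03 to 0.43, so a fall of up to 2.04-fold and a modest rise were both within it. Leaving out MHC-Plin5 2 moved it to -0.62, and leaving out MHC-Plin5 1 to -0.05.

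Angptl4, the secreted inhibitor of lipoprotein lipase, ranked the transgenic hearts in the same order as Pdk4. Its log2 levels were 8.11, 8.11, 8.94 and 7.10 in controls 1 to 4 and 6.75, 8.82, 7.85 and 6.83 in MHC-Plin5 hearts 1 to 4. MHC-Plin5 2 was again the highest of its group and MHC-Plin5 1 the lowest, and the controls themselves spanned 1.84 log2 units. The difference was -0.50 (SE 0.46, 95% interval -1.51 to 0.51, limma adjusted p = 0.659). Leaving out MHC-Plin5 2 moved it to -0.92, control 4 to -0.82 and control 3 to -0.21. The SD pooled over both groups was smaller in 99.7% of all genes than that of Angptl4, in 99.2% than that of Pdk4 and in 99.2% than that of Ucp3, against 36.5% for Cyp4b1.

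Acot2, the mitochondrial thioesterase next to Acot1 in the genome, had log2 levels of 12.47, 12.21, 12.24 and 11.96 in controls 1 to 4. They were 12.21, 12.73, 12.16 and 11.52 in MHC-Plin5 hearts 1 to 4. MHC-Plin5 2 was above all controls and MHC-Plin5 4 below all of them. The difference was -0.06 (SE 0.21, 95% interval -0.53 to 0.41, limma adjusted p = 0.924), and it was 0.15 without MHC-Plin5 4.

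**Figure D3:**
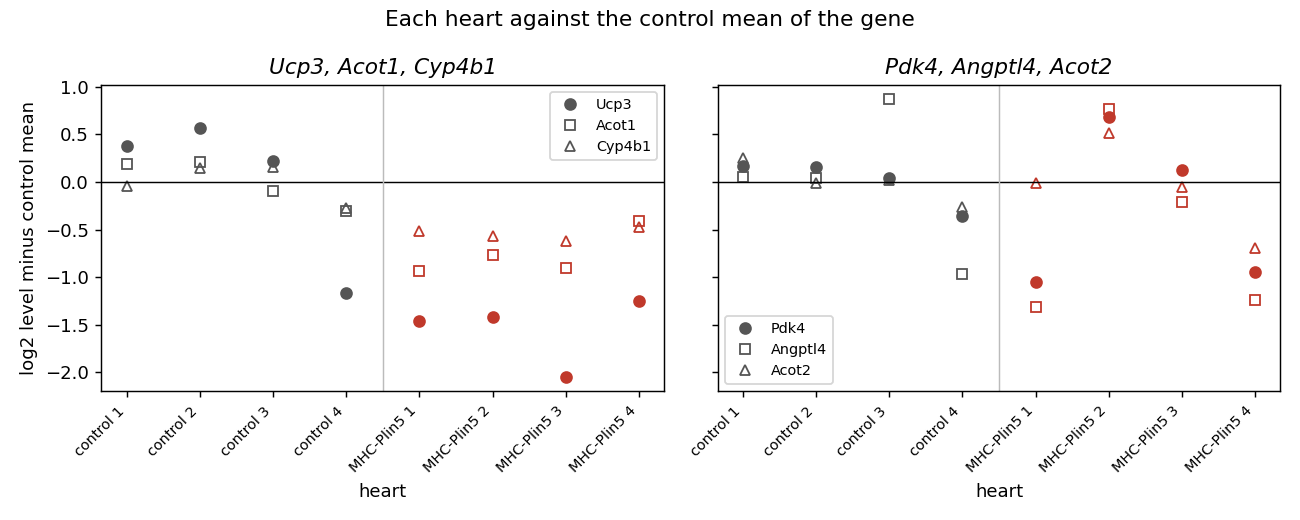
Log2 level of each heart minus the control mean of the gene (y axis), for the 3 genes called lower (left) and the 3 that were not called (right); grey symbols are control and red symbols MHC-Plin5 hearts. On the left all MHC-Plin5 hearts are below 0; on the right MHC-Plin5 2 is above 0 for each gene, MHC-Plin5 4 is below 0 for each, and control 4 is below 0 in both panels.

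The 3 called members and the 3 that were not called ranked the transgenic hearts differently. Within groups, that is over deviations of the 8 hearts from their group means, Pearson r was 0.88 for Ucp3 with Cyp4b1. For Ucp3 with Acot1 it was 0.77, and for Acot1 with Cyp4b1 0.57. It was 0.88 for Pdk4 with Angptl4, 0.76 for Pdk4 with Acot2 and 0.72 for Angptl4 with Acot2. For the 9 pairs of a called with an uncalled member it ran from -0.20 (Acot1 with Acot2) to 0.34 (Ucp3 with Angptl4). These 9 values join opposite signs: over the 4 controls alone r was 0.42 (Acot1 with Angptl4) to 0.99 (Ucp3 with Pdk4), and over the 4 MHC-Plin5 hearts alone it was -0.78 (Cyp4b1 with Pdk4) to -0.21 (Ucp3 with Acot2). These values describe 8 arrays that share their normalization, and control 4 was the lowest control for each of the 6 members.

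Control 4 also had the highest summed level of the atrial list among controls, 15.07 against 11.77 to 13.79. All MHC-Plin5 hearts, at 13.94 to 15.18, were likewise above the other controls. Of the 6 atrial markers 0 had a difference under 0, the median difference was 0.88, and 0 were called between genotypes. The white adipocyte sum of control 4 was 9.92, against 7.84 to 8.55 in the other controls and 7.82 to 8.39 in MHC-Plin5 hearts (0 of 5 markers called). The part of these cells in the low member levels of control 4, or in the differences between genotypes, was not tested. Without control 4 the differences were larger, at -1.93 for Ucp3, -0.86 for Acot1 and -0.63 for Cyp4b1.

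The levels of Pdk4 and Angptl4 followed the same division of the transgenic hearts as the transgene. MHC-Plin5 2 and 3, with Plin5 at 12.69 and 12.63, had Pdk4 at 12.96 and 12.41 and Angptl4 at 8.82 and 7.85. MHC-Plin5 1 and 4, with Plin5 at 12.17 and 12.08, had Pdk4 at 11.23 and 11.34 and Angptl4 at 6.75 and 6.83. The division was not particular to these genes: Mt2 had it too, and Ppara and Ppargc1a had it in reverse (values below). With 4 hearts this is a description. No correlation was computed, and the share of all genes with this division was not counted.

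Acot1 and Acot2 are neighbours in a thioesterase cluster and encode closely similar enzymes, so their rows may share signal. In RefSeq GRCm38.p6, Acot2 lies at chr12:83987861-83993877 and Acot1 at chr12:84009502-84017670, with 15624 bases between them. The other members lie apart, with Ucp3 at chr7:100472991-100486432, Pdk4 at chr6:5483351-5496278, Angptl4 at chr17:33774900-33781575 and Cyp4b1 at chr4:115624698-115647721, and each row stands for the whole transcript. Acot1 minus Acot2 within a heart was -5.19, -4.91, -5.23 and -5.17 in controls 1 to 4 and -6.05, -6.41, -5.97 and -4.84 in MHC-Plin5 hearts 1 to 4, where only the change between groups has meaning. MHC-Plin5 1 to 3 lay below every control and MHC-Plin5 4 above every control. The change of -0.69 did not pass (exact two-sided permutation p = 0.143, 1 pair tested). Without MHC-Plin5 4 it was -1.02 with an exact permutation p of 0.0286, the smallest that 4 against 3 hearts can give. With any other single heart left out the change did not pass (exact permutation p of 0.143 to 0.229). The other genes of the cluster, in order Acot4, Acot3, Acot5 and Acot6, had differences of -0.08, -0.42, -0.11 and 0.11, and none was called. Acot3, the strongest of 13 further thioesterases (0 called, with 1 lower and 2 higher at an unadjusted p under 0.05), had a limma adjusted p of 0.108. It was called only without MHC-Plin5 4.

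The stretches of 250 bases before the transcription start are shown for the 3 lower genes and for Acot2, to set the neighbours Acot1 and Acot2 side by side. They are RefSeq sequences of GRCm38.p6, 5′ to 3′ on the gene's strand, and 5 of the 6 members matched an entry (Angptl4 is named only). Capitals mark AGGTCA, the core hexamer that nuclear receptors such as PPAR bind, searched on both strands. The Ucp3 stretch is chr7:100472741-100472990 (plus strand), that of Acot1 chr12:84009252-84009501 (plus), that of Acot2 chr12:83987611-83987860 (plus) and that of Cyp4b1 chr4:115647722-115647971 (minus).
Ucp3: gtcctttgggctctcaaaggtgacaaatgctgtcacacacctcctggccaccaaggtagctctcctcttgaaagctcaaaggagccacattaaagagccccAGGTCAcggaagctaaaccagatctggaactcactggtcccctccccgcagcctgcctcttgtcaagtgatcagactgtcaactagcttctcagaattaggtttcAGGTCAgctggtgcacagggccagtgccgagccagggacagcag
Acot1: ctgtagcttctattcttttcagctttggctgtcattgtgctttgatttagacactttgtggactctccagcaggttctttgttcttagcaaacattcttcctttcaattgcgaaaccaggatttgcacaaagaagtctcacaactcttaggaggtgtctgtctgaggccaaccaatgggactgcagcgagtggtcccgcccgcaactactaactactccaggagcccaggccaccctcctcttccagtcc
Acot2: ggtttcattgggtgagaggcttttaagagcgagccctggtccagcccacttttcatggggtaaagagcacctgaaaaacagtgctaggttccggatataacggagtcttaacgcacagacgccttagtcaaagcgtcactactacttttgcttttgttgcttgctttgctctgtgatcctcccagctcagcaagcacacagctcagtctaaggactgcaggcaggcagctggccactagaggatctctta
Cyp4b1: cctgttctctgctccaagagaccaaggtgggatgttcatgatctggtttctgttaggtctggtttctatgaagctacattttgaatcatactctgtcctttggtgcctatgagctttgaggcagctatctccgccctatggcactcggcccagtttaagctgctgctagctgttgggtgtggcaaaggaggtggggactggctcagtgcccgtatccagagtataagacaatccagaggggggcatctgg
Ucp3 held 2 copies of AGGTCA, from 149 to 144 and from 44 to 39 bases before the start, both on the gene's strand. Acot1, Acot2, Cyp4b1 and Pdk4 had no match, and 14% of the 32851 promoters of the table held at least 1 in the same window. A direct repeat of AGGNCA with 1 base between the copies, the arrangement known for PPAR elements, was found in 0 of the 5 members and in 0.338% of all promoters. No match says only that these letters are not in this window. Aligned over the 250 bases, Acot1 and Acot2 were 45.2% identical, at the low end of the 45.2% to 51.4% over the 10 pairs of the 5 members, so these neighbours were not more alike there than the other pairs.

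Of 47 other PPAR-alpha targets measured, from a list of 51, 8 were called lower and 1 higher, against 1.17% and 2.08% of all genes. The list had 42 members under 0 and a median of -0.31, against -0.03 over all genes, and in 17 every MHC-Plin5 heart was below every control, against 5% of all genes. Acaa2, the thiolase that ends each round of fatty acid oxidation, was at 13.05, 13.06, 13.05 and 13.04 in controls 1 to 4 and at 12.43, 12.04, 11.53 and 12.34 in MHC-Plin5 hearts 1 to 4. The controls were nearly identical and MHC-Plin5 3 was the lowest heart. Its difference was -0.96 (SE 0.17, limma adjusted p = 0.0136). Ech1, Decr1 and Slc25a20, of unsaturated fatty acid oxidation and carnitine transport, had -0.80, -0.68 and -0.74. The 1 higher gene was Fgf21, a hormone of fasting that is also a target of the stress factor ATF4. It was named after its values were seen, like the remaining lower genes Vldlr (-0.63), Retsat (-0.72), Eci1 (-0.77) and Mlycd (-0.49). Fgf21 was at 5.49, 5.72, 5.44 and 5.70 in controls 1 to 4 and 6.18, 6.48, 6.12 and 5.88 in MHC-Plin5 hearts 1 to 4, 1.49-fold higher (difference 0.58, SE 0.13, limma adjusted p = 0.0406). Its call held without MHC-Plin5 4 and ended with any other single heart left out. Leaving out hearts moved the number of lower targets to 2 (control 1, control 2 or MHC-Plin5 2 left out), 1 (control 3), 4 (MHC-Plin5 3) or 17 (MHC-Plin5 4). Acaa2 stayed called with each heart left out. The call of Ech1 depended on control 3, and those of Decr1 and Slc25a20 each depended on controls 1, 2 and 3 and on MHC-Plin5 2.

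**Figure D4:**
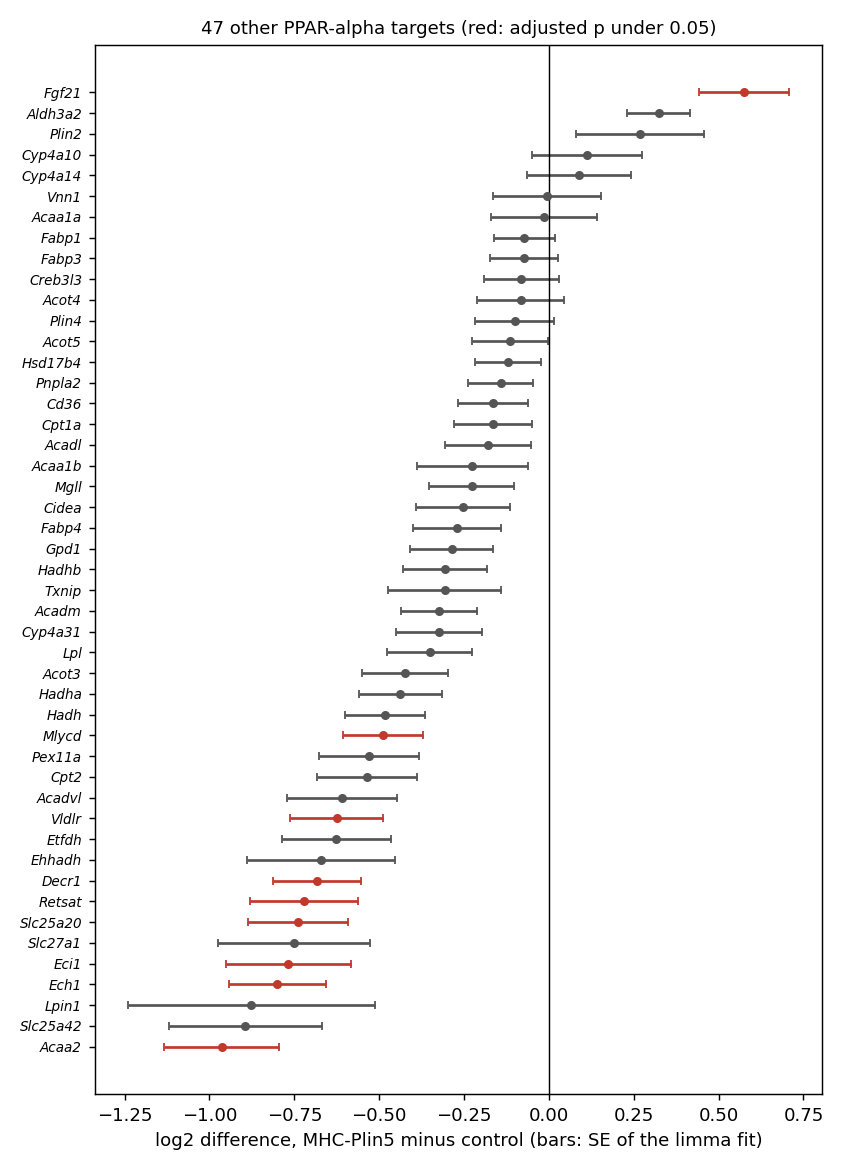
Log2 difference between MHC-Plin5 and control hearts (x axis, bars are the SE of the limma fit over 4 hearts a group) for 47 other PPAR-alpha targets sorted by size; red marks an adjusted p under 0.05. Fgf21 is at the top with 0.58, Acaa2 at the bottom with -0.96, and 42 genes lie below 0.

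The other targets were not lowest in the hearts where Pdk4 and Angptl4 were low. Their median deviation from the control mean was -0.27, -0.35, -0.46 and -0.17 in MHC-Plin5 hearts 1 to 4, lowest in MHC-Plin5 3 and 2. For the 6 members it was -0.99, -0.03, -0.42 and -0.82. Within groups, the median r of the 47 targets was 0.54 with Ucp3, 0.51 with Acot1 and 0.46 with Cyp4b1, where the median over all genes was 0.25, 0.34 and 0.27. It was -0.29 with Pdk4, -0.14 with Angptl4 and -0.15 with Acot2, against -0.10, -0.08 and -0.23 over all genes. All genes had the same split in sign, so it is not particular to the targets. The 19 fasting targets of the glucocorticoid receptor and FOXO factors had 0.38, 0.41 and 0.42 with Ucp3, Acot1 and Cyp4b1, and -0.35, -0.22 and -0.32 with Pdk4, Angptl4 and Acot2. Of the 47 targets, 11 had r over 0.7 with Ucp3 (6.88% of all genes did), 4 with Acot1 (13.4%) and 8 with Cyp4b1 (7.66%). The counts were 3 with Pdk4 (4.73%), 2 with Angptl4 (2.34%) and 2 with Acot2 (3.26%). All are values over the same 8 arrays.

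None of the genes for the receptors and their partners was called. Of 12 measured (Ppara, retinoid X receptors, coactivators and others), 9 were under 0, with a median of -0.19 and 4 lower at an unadjusted p under 0.05. Ppara, named for its role, was at 9.99, 9.53, 9.95 and 9.63 in controls 1 to 4 and 9.70, 9.13, 8.76 and 9.81 in MHC-Plin5 hearts 1 to 4. MHC-Plin5 2 and 3 were below all controls and MHC-Plin5 1 and 4 within their range. The difference was -0.42 (SE 0.22, limma adjusted p = 0.365). Ppargc1a, the coactivator PGC-1 alpha, had the smallest p of the list, with 11.54, 11.72, 11.61 and 11.63 in controls 1 to 4 and 11.35, 10.88, 10.53 and 11.33 in MHC-Plin5 hearts 1 to 4. All MHC-Plin5 hearts were below the controls, again with MHC-Plin5 2 and 3 the lowest, and the difference of -0.61 (SE 0.17) had a limma adjusted p of 0.0855. It was called without MHC-Plin5 1 or MHC-Plin5 4 only.

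The close partners of Pdk4 were not called either. Of 11 genes of the pyruvate dehydrogenase complex, its kinases and its phosphatases, 9 were under 0 with a median of -0.28, and 6 were lower at an unadjusted p under 0.05. Pdp2, a phosphatase that undoes the action of the kinases, had the smallest p, with a difference of -0.98 (SE 0.25, limma adjusted p = 0.0596). Its call was gained without MHC-Plin5 1 or MHC-Plin5 4. Pdk2, the other abundant kinase of heart and named after its values were seen, was at 12.02, 12.05, 12.08 and 12.03 in controls 1 to 4. It was at 11.86, 11.65, 11.47 and 11.64 in MHC-Plin5 hearts 1 to 4, with no overlap and a difference of -0.39 (SE 0.10, limma adjusted p = 0.0633).

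Around Angptl4, 0 of 7 family members and lipoprotein lipase partners were called. At an unadjusted p under 0.05, 2 were lower and 1 higher. Angptl6, another member of the angiopoietin-like family, had the smallest p (difference 0.52, SE 0.14, limma adjusted p = 0.0689). Lpl, the lipase that Angptl4 inhibits, was named for that role and had a difference of -0.35 (SE 0.12, limma adjusted p = 0.17). For Ucp3, the 4 further carriers of the family (Ucp1, Slc25a14, Slc25a27 and Slc25a30) had differences of -0.29, 0.05, -0.04 and 0.32, and 0 were called. At an unadjusted p under 0.05, Ucp1 was lower and Slc25a30 higher. The brown adipocyte list, which also holds Ppargc1a, had a sum of 11.85 to 12.01 in control and 11.07 to 11.66 in MHC-Plin5 hearts. Ppargc1a by itself was at 11.54 to 11.72 in control and 10.53 to 11.35 in transgenic hearts. No other marker of the list exceeded 9.03 in any heart, so the sum mostly repeats Ppargc1a and says little about brown adipocytes. The list had 0 of 6 markers called, and its part in the Ucp3 values was not tested. Its defining gene Ucp1 was at 5.47 ± 0.12 and 5.18 ± 0.10 (SD, n = 4 each). Of 14 genes of the cytochrome P450 family 4, 0 were called, 2 were lower and 0 higher at an unadjusted p under 0.05, and Cyp4a12a had the smallest p (difference -0.40, SE 0.15, limma adjusted p = 0.198).

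Fasting genes under glucocorticoids and FOXO factors, a route that also reaches Pdk4 and Angptl4, were mostly not called. Of 19 measured, 1 was called higher and 0 lower, with a median of -0.01. At an unadjusted p under 0.05, 4 were higher and 0 lower. In 4 genes every MHC-Plin5 heart was above every control, against 6.24% of all genes. The called gene was Mt2, a metal-binding metallothionein, at 11.49, 11.87, 11.73 and 10.83 in controls 1 to 4 and 12.57, 13.12, 13.04 and 12.36 in MHC-Plin5 hearts 1 to 4. Control 4 was the lowest heart of all and MHC-Plin5 2 the highest. The difference was 1.30 (SE 0.23, limma adjusted p = 0.0144), and the call ended without MHC-Plin5 2. Within groups, Mt1, Mt2 and Sgk1 had r over 0.7 with both Pdk4 and Angptl4, while the list's median r was -0.35 with Pdk4 and -0.22 with Angptl4. Irs2 exceeded 0.7 with Pdk4 only and Fkbp5 with Angptl4 only. Apart from Mt2, these genes were named after their values were seen. Over all genes, 4.73% exceeded 0.7 with Pdk4 and 2.34% with Angptl4.

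The gene most like each member, by Pearson r of deviations from the group means over 8 hearts among 18707 named genes, was Lcmt2 for Ucp3 (r = 0.99), Tmsb15a for Pdk4 (0.99) and Zfp616 for Angptl4 (0.96). It was Tapt1 for Acot1 (0.99), Ttll7 for Acot2 (0.97) and Art4 for Cyp4b1 (0.99). Each is the highest r picked from 18707 genes over 8 arrays, so a high value was bound to appear. With the group means left in, r over the 8 hearts was 0.45 for Lcmt2, 0.76 for Tmsb15a and 0.96 for Zfp616. It was -0.11 for Tapt1, 0.32 for Ttll7 and 0.86 for Art4. The genotype difference of these genes was 0.04 for Lcmt2, 0.17 for Tmsb15a, -0.09 for Zfp616, 0.13 for Tapt1, 1.45 for Ttll7 and -0.33 for Art4. Among these 6 genes only Ttll7, a tubulin-modifying enzyme, was called (limma adjusted p = 0.00526).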

How the data were processed

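Arrays of 8 hearts were analysed. The deposited log2 values are the authors' RMA output; the submitters' processing notes name Affymetrix Expression Console, and its settings and version are not stated in the sources used here. RMA quantile-normalizes the arrays together and can compress large folds. GEO's platform annotation gave exactly 1 symbol to 21789 of the 35556 rows, and gene IDs of 19856 of 19938 genes matched RefSeq GRCm38.p6. Where a gene had more than 1 row, the brightest row on average was kept, and dim rows were not filtered. Each gene was fitted with lmFit and eBayes of limma 3.58.1 in R 4.3.3 on genotype alone, two-sided, with Benjamini-Hochberg adjustment over all genes. Differences are MHC-Plin5 minus control. Tested on simulated data for this comparison with 19938 genes, changes of 0.5, 1, 2 and -1 were called in 48%, 96%, 100% and 88% of cases, with 9 of 175 calls false. The simulated noise was independent between genes and had the same SD in both groups. In the hearts the SD could differ, at 0.009 in control and 0.41 in MHC-Plin5 hearts for Acaa2, and 0.25 and 0.84 for Pdk4. The simulated shares therefore do not give the false calls of these data. Figures were drawn with matplotlib 3.10.9.

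The members, gene lists and tests were chosen with earlier results of these data known. Named were the members, Plin5, from each list the called genes (up to 4 by smallest p) or else the 1 with the smallest p, and the gene most like each member. Others are marked in the text as named for their role or after their values were seen, or are given as a whole group (the thioesterase cluster and the further uncoupling protein carriers). Alternatives were array weights, median centring, quantile normalization, a filter at a mean of 5, robust variances along an intensity trend, other treatments of rows, the heart number as a block, the array median as a covariate, left-out hearts, an adjusted p under 0.01 and an unequal-variance test. Same-numbered hearts were not taken as pairs. The planned comparison of Ucp3 with Ucp2 was not made, since Ucp2 was not analysed here. Scanner files and scan dates were not used here, so no batch was tested.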

Additional observations from a re-analysis of the deposited data

Results flagged for a closer look

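In 42 groups of 4 hearts examined for a heart far from the others, 2 stood out, where chance gives about 1 in 20. Decr1, one of the lower PPAR-alpha targets, was at 11.39 in control 4, below the next control at 11.65, and control 4 was also the lowest control for all 6 members. Angptl6 was at 7.80 in MHC-Plin5 4, above the next heart of its group at 7.35.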

How the results depend on the processing

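The count of 3 members called lower stayed at 3 with a filter at a mean of 5, quantile normalization, median centring, the array median as a covariate, array weights and averaged rows of a gene. It was 2 with an intensity trend and robust variances, 1 with the heart number as a replicate block (limma adjusted p = 0.0385 for Ucp3, 0.0543 for Acot1 and 0.0690 for Cyp4b1), 1 without the 2 arrays with the highest medians (Acot1, 0.0201), and 0 with every row tested, an adjusted p under 0.01 or the unequal-variance test. With single hearts left out it was 0 to 3. No member was called higher under any alternative run. Other targets called lower numbered 13 with quantile normalization, 13 with the intensity trend, 19 with array weights, 2 with every row, 5 with the replicate block, 5 with the array median as a covariate, 0 at 0.01, 0 with the unequal-variance test, and 1 to 17 with single hearts left out. Other targets called higher numbered 0 with every row, the block, the covariate, 0.01 or the unequal-variance test, and 0 to 1 with hearts left out. All genes called numbered 1625 with array weights, 301 with every row, 169 at 0.01, 28 with the unequal-variance test, and 233 to 1174 with hearts left out. The causes were not tested. The difference of Acot2, -0.26 to 0.15 with hearts left out, was above 0 with array weights (0.15), without the 2 highest arrays (0.15), and without control 1 (0.02) or MHC-Plin5 4 (0.15). Acot1 minus Acot2 ran from -1.02 to -0.49 with hearts left out and was -0.69 with the block, whose exact p of 0.25 cannot go below 0.125. Deviations of same-numbered hearts correlated at 0.19, 0.03, -0.11 and -0.04 for numbers 1 to 4. Only for number 1 were the same-numbered hearts each other's best match between the groups.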
